A study of Bos taurus with 6 samples.

Results

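The epidermal growth factor (EGF) family was examined in cultured bovine granulosa cells through 9 genes: the ligands AREG, EREG, BTC and HBEGF, the receptors EGFR, ERBB2 and ERBB3, and the receptor inhibitors ERRFI1 and LRIG1. The members were taken by gene symbol from the platform annotation, with older synonyms accepted. Of the 9 genes, 7 had a named probe, 9 probes in all out of 43794 on the array, while EREG and ERBB2 had none and are not analysed here. The cells came from Holstein follicles 2 to 6 mm across and grew for 5 days in medium free of serum that held FSH and insulin, each at 10 ng/ml. Treated cells then received FGF8 at 10 ng/ml for 2 h, and control cells, which shared the same medium, FSH and insulin, are labelled 0 h. FGF8 and 2 h of additional culture therefore cannot be told apart. Each of 3 biological replicates was hybridised on 2 arrays carrying treated and control RNA, with the dyes Cy5 and Cy3 exchanged between them. The labels do not say whether replicates came from separate animals or pools, so the errors measure the spread between these 3 samples, which may be technical.

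EGF-like ligands are made as membrane proteins, are cut free by proteases such as ADAM17 and bind EGFR or other ERBB receptors on the same or neighbouring cells. In mouse follicles, luteinising hormone switches on AREG, EREG and BTC in granulosa cells, and the shed ligands carry the signal to cumulus cells and the oocyte. ERRFI1, also called MIG6, binds the EGFR kinase domain and blocks it, and its transcript is itself induced by growth factors that activate ERK. LRIG1 is a membrane protein that lowers the amount of ERBB receptors. In the bovine RefSeq assembly ARS-UCD2.0, EREG, AREG and BTC are neighbouring protein-coding genes on chromosome 6.

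All ratios below are the deposited log2 ratios of FGF8-treated over control RNA, with the 2 arrays of each replicate averaged, so that 1.00 is a doubling. A probe was kept for testing when, on at least 4 of 6 arrays, its treated RNA or its control RNA was brighter than 95% of the negative control spots, and 27210 probes were kept. Median spot intensity per array was 108 to 187 in treated and 132 to 192 in control RNA, and the number of arrays limits the precision. The dye-swapped arrays of replicates 1 and 3 correlated at 0.474 and 0.450 across kept probes, those of replicate 2 at -0.107. The means of the tested members are therefore also given without replicate 2. Arrays of different replicates correlated at 0.064 to 0.28 in the same dye orientation and at -0.24 to -0.076 in opposite ones. With the mean of each orientation taken out, the arrays of replicate 2 correlated at 0.454. Between replicates, the averaged ratios of kept probes correlated at 0.010 for 1 and 2, -0.0099 for 1 and 3, and 0.11 for 2 and 3. The replicates thus shared little of their ratios across kept probes. Granulosa markers had a kept probe for 6 of 8 genes, with FSHR and CYP19A1 above the negative controls in both RNAs on all 6 arrays and FOXL2 and HSD17B1 not kept. Kept probes were also found for 5 of 6 theca and stroma markers (CYP17A1 was not kept), 4 of 5 endothelial, 3 of 3 leukocyte and 2 of 5 oocyte markers. Over all named genes with a probe, 11190 of 15216 had a kept one, so these counts do not tell which cell types were present. Some kept markers were dim: control RNA of the endothelial marker CDH5 was above the negative controls on 2 of 6 arrays. In a limma fit over all kept probes, 1 probe (0.00368%) passed an adjusted p of 0.05; it is EMBV3_13476, which has no gene name in the annotation and was picked out after its values were seen.

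ERRFI1, the cytoplasmic inhibitor of EGFR, was 2.20-fold higher in FGF8-treated cells, with a mean log2 ratio of 1.13 ± 0.32 (SD, n = 3). On their brightest kept probe, the other 5 members had means from -0.16 to 0.14. Of the 8 kept probes of the family, only that of ERRFI1 was higher in treated RNA on all 6 arrays, as were 3.34% of all kept probes. None of the 8 was lower on all 6 arrays, against 2.5% of all kept probes. No member passed the adjusted threshold, and 1 of 8 member probes, that of ERRFI1, had an unadjusted p under 0.05, against 4.94% of all kept probes.

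**Figure D1:**
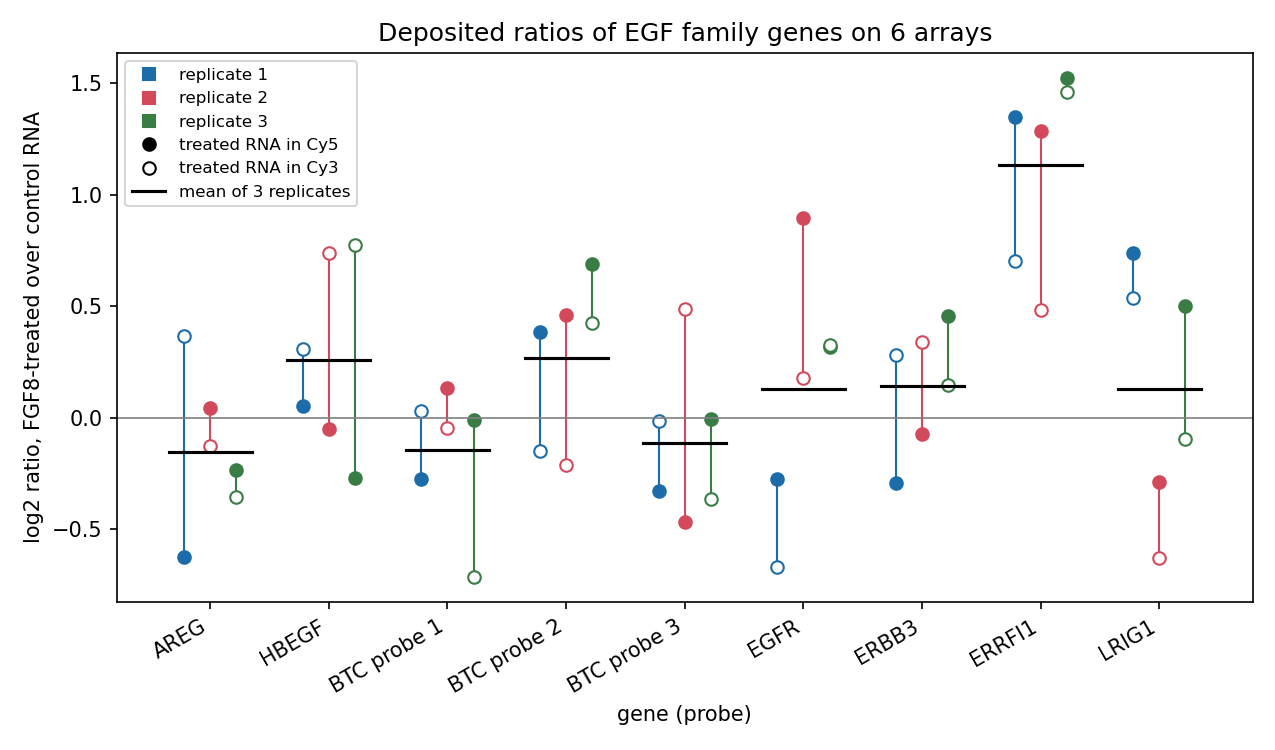
Deposited log2 ratios of treated over control RNA (vertical axis) for every probe of the family. Colours mark the 3 replicates, filled circles treated RNA in Cy5, open circles treated RNA in Cy3, and black bars the mean of 3 replicates. All 6 points of ERRFI1 lie above 0, from 0.48 to 1.52, while those of every other probe lie on either side of 0.

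With treated RNA in Cy5, the ERRFI1 ratios were 1.35, 1.29 and 1.52 in replicates 1, 2 and 3. With treated RNA in Cy3 they were 0.70, 0.48 and 1.46. The averages per replicate were 1.03, 0.88 and 1.49, so the lowest replicate was still close to a doubling. Replicate 3 was the highest in either dye orientation. The mean was 1.39 in the first orientation and 0.88 in the second. The dye effect, by which each orientation departs from their common mean, was 0.25 ± 0.20 (n = 3) and did not pass the test in limma (adjusted p = 0.134).

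The scanner intensities behind these ratios were low. In treated RNA the ERRFI1 spot read 282, 320, 271, 312, 482 and 422 over the arrays, ordered by replicate with treated RNA in Cy5 before Cy3. In control RNA the same spot read 171, 185, 168, 189, 215 and 165. The treated reading was higher on each array, while median intensity also differed between dyes and arrays. Treated RNA lay at 1.92 to 4.95 times the 95th percentile of the negative control spots, on 6 of 6 arrays above it. Control RNA lay at 0.970 times that level on 1 array and above it on the other 5. The deposited ratios subtract the local background around a spot and not the level of the negative controls, so the size of the ERRFI1 ratio depends on how background is taken. With 50 added to every background-subtracted intensity, an alternative added after the data were seen, the mean was 0.92.

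**Figure D2:**
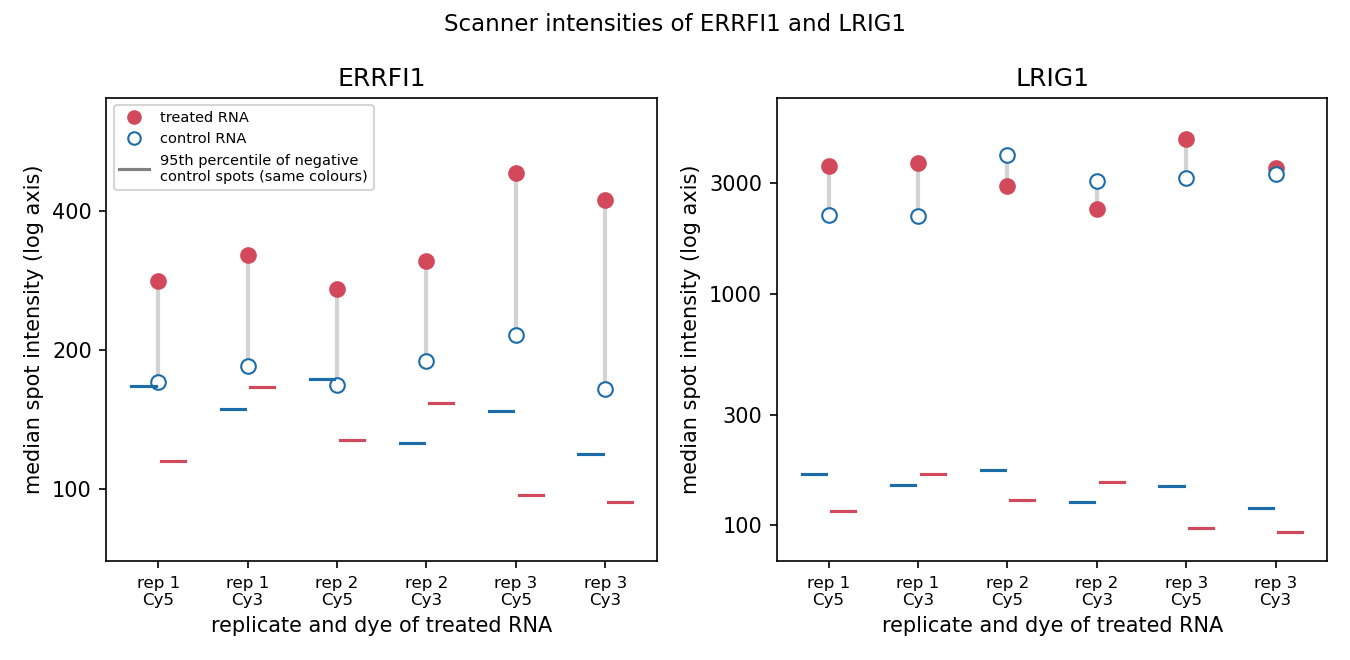
Median spot intensity (log axis) of ERRFI1 and LRIG1 on each array, by replicate and dye of the treated RNA. Filled red circles are treated RNA, open blue circles control RNA, and short lines of the same colours the 95th percentile of the negative control spots. ERRFI1 is brighter in treated RNA on every array, from a control level of 165 to 215, whereas the order of the LRIG1 readings changes between replicates.

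The 95% interval of the ERRFI1 mean in limma ran from 0.75 to 1.52, a fold of 1.68 to 2.87, before any adjustment for the number of probes. Only 20 of 27210 kept probes had a higher mean. The ratio exceeded those of 99.62%, 99.78% and 98.99% of kept probes in replicates 1, 2 and 3. The members were chosen with earlier results of these data known, so this rank is a description and not independent evidence. ERRFI1 did not pass over all kept probes (limma adjusted p = 0.603). When the 6 arrays entered as separate values blocked by replicate number, it passed (1.13, limma adjusted p = 0.0428), in a fit that draws its degrees of freedom from arrays and not from the 3 replicates. Without replicate 2 the mean was 1.26 and without replicate 3 it was 0.95. Without replicate 1, which leaves replicates 2 and 3 of a single slide as the array names were read, it was 1.19.

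**Figure D3:**
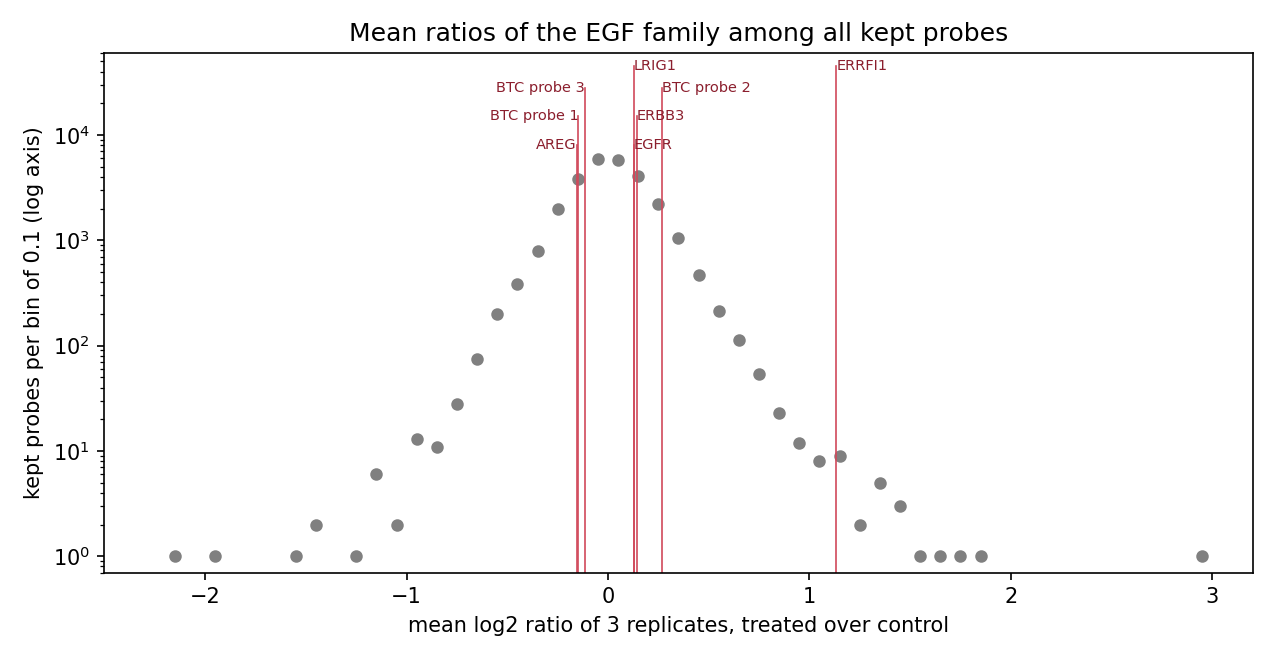
Number of kept probes (log axis) in each bin of 0.1 of the mean log2 ratio of 3 replicates, with the kept probes of the family marked by red lines. ERRFI1 at 1.13 lies in the upper tail, and the 7 other kept probes lie between -0.16 and 0.27, where most probes are.

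The genes whose ratios over the 6 arrays were nearest to those of ERRFI1, by root mean square difference, were KLF10 (0.32), JPH1 (0.34) and SNAI2 (0.40). KLF10 is a zinc finger transcription factor induced early by growth factors, and its mean ratio was 0.91 ± 0.32 (n = 3). JPH1, a protein that links the endoplasmic reticulum to the plasma membrane, averaged 1.06 ± 0.58. SNAI2, a transcriptional repressor, averaged 1.17 ± 0.67. They are the nearest of 11190 named genes with a kept probe, and the ranking is a description over 6 arrays.

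Apart from the brightest BTC probe, the ligand probes were near the level of the negative control spots. No ligand probe was higher or lower on all 6 arrays. AREG, amphiregulin, had ratios of -0.63, 0.04 and -0.24 with treated RNA in Cy5, and of 0.37, -0.13 and -0.36 with treated RNA in Cy3. The signs of replicates 1 and 2 turned with the dyes, and 2 of 6 arrays were higher in treated RNA. Per replicate AREG stood at -0.13, -0.04 and -0.30, with a mean of -0.16 ± 0.13 (SD, n = 3; limma adjusted p = 0.873). The mean was -0.21 without replicate 2 and -0.086 without replicate 3. The 95% interval of -0.47 to 0.16 spans folds from 0.721 to 1.12. The AREG probe was above the negative controls on 3 of 6 arrays in treated and on 4 of 6 in control RNA, so the signal itself was barely measurable. It was kept through control RNA alone, the RNA in which it was higher, and such a filter favours the sign seen.

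HBEGF, the heparin-binding ligand of EGFR and ERBB4, had no kept probe. It was above the negative controls on 3 of 6 arrays in treated RNA, all with treated RNA in Cy3, and on 1 of 6 in control RNA. Its ratios were 0.05, -0.05 and -0.27 with treated RNA in Cy5, and 0.31, 0.74 and 0.77 with treated RNA in Cy3, so the orientations did not overlap. The averages per replicate lay close together, at 0.18, 0.34 and 0.25, with a mean of 0.26 ± 0.081 (n = 3). In the fit without the filter, over 43651 probes, the interval was -0.01 to 0.53 (limma adjusted p = 0.934). Averaging the dye swap brought the replicates together, while treated RNA in Cy5 was below the 95th percentile of the negative controls on all 3 of its arrays.

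**Figure D4:**
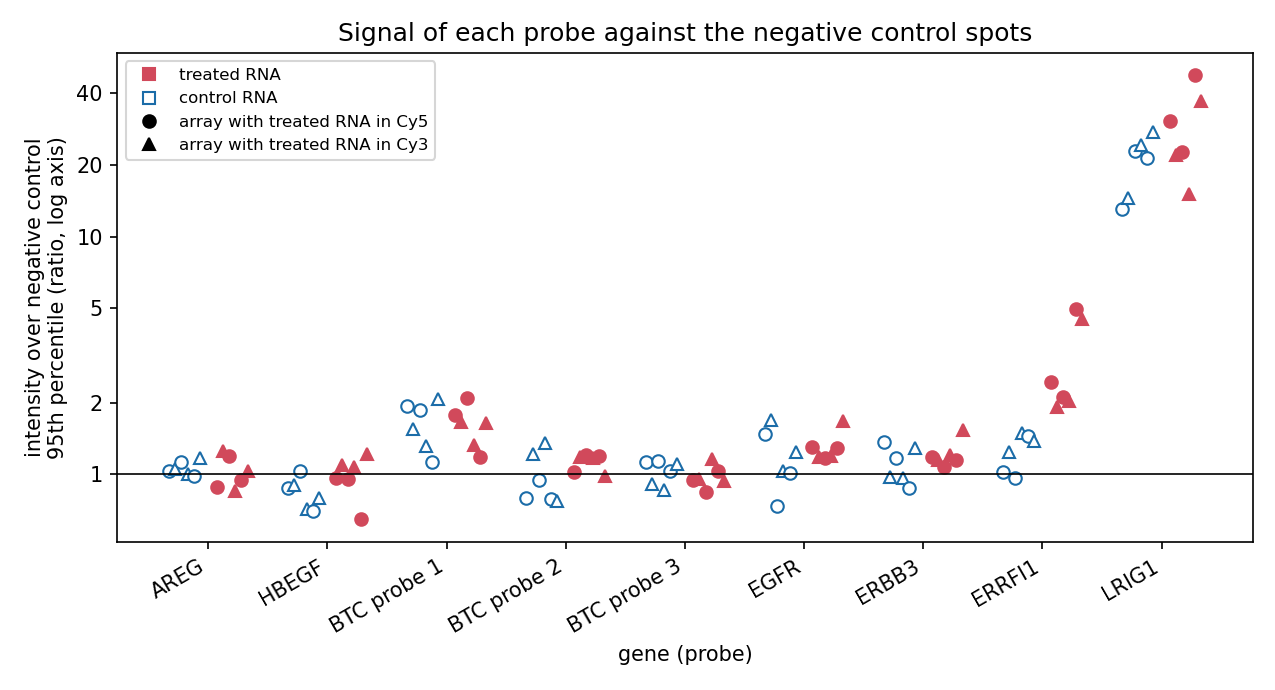
Median spot intensity of every probe as a ratio to the 95th percentile of the negative controls on that array (log axis), with control RNA as open blue and treated RNA as filled red symbols. Circles are arrays with treated RNA in Cy5, triangles arrays with treated RNA in Cy3, and the horizontal line marks a ratio of 1. AREG, HBEGF, EGFR and ERBB3 sit around the line, LRIG1 lies 13.1 to 47.7 times above it, and the treated RNA of ERRFI1 lies 1.92 to 4.95 times above it.

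BTC, betacellulin, which binds EGFR and ERBB4, had 3 kept probes that did not point the same way. The brightest, above the negative controls in both RNAs on all 6 arrays, stood at -0.12, 0.04 and -0.36 in replicates 1, 2 and 3. Its mean was -0.15 ± 0.20 (n = 3), with an interval of -0.49 to 0.19 (limma adjusted p = 0.882). The mean was -0.24 without replicate 2 and -0.040 without replicate 3. A single array, replicate 3 with treated RNA in Cy3, gave -0.71, and the other 5 lay between -0.28 and 0.13. The second probe was higher, at 0.12, 0.12 and 0.56 with a mean of 0.27 ± 0.25, but control RNA was above the negative controls on only 2 of 6 arrays. The third probe averaged -0.12 ± 0.11, with treated RNA above the negative controls on 2 of 6 arrays. The mean over the 3 probes was 0.00095, so no direction can be given for BTC.

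The receptors gave small means with wide intervals. EGFR, the receptor of AREG, BTC and HBEGF, had ratios of -0.27, 0.89 and 0.32 with treated RNA in Cy5 and of -0.67, 0.18 and 0.33 with treated RNA in Cy3. Replicate 1 was lower in treated RNA on its 2 arrays, and replicates 2 and 3 were higher on all of theirs. The averages were -0.47, 0.54 and 0.32, with a mean of 0.13 ± 0.53 (n = 3; limma adjusted p = 0.935). The interval of -0.38 to 0.64 spans folds from 0.770 to 1.55. Without replicate 1 the mean was 0.43, without replicate 3 it was 0.032, and without replicate 2 it turned to -0.075, so the direction rests on single replicates. The EGFR probe was above the negative controls on 6 arrays in treated and 5 in control RNA, at no more than 1.69 times their 95th percentile.

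ERBB3, which has little kinase activity of its own and signals with a partner such as ERBB2, stood at -0.01, 0.14 and 0.30. The mean was 0.14 ± 0.15 (n = 3), with an interval of -0.18 to 0.47 (limma adjusted p = 0.882). It was 0.22, 0.15 and 0.064 without replicates 1, 2 and 3 in turn. Treated RNA was above the negative controls on 6 of 6 arrays and control RNA on 3 of 6. The probe was thus kept through treated RNA alone, in which it was higher. The ratio averaged 0.03 over arrays with treated RNA in Cy5 and 0.26 over the others.

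LRIG1, the membrane regulator of ERBB receptors, had much the clearest signal, with readings of 2311 to 4643 in treated and 2161 to 3952 in control RNA. Its ratios with treated RNA in Cy5 were 0.74, -0.29 and 0.50, and with treated RNA in Cy3 they were 0.54, -0.63 and -0.10. Replicate 1 was higher in treated RNA and replicate 2 lower on their 2 arrays each, and the sign of replicate 3 turned with the dyes. The averages were 0.64, -0.46 and 0.20, and the mean of 0.13 ± 0.55 (n = 3) did not pass (limma adjusted p = 0.937). Without replicate 1 the mean turned to -0.13, without replicate 2 it was 0.42 and without replicate 3 it was 0.090. The interval of -0.39 to 0.65 spans folds from 0.761 to 1.57. LRIG1, whose spot was bright, spread between replicates about as widely as EGFR, whose spot was dim (SD 0.55 and 0.53). The source of this spread was not tested.

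The replicates also differed in cell type markers. Over the 6 granulosa markers kept, the median ratio was 0.60, -0.19 and 0.02 in replicates 1, 2 and 3. Over the 5 theca and stroma markers it was -0.16, 0.11 and -0.06. Over the 4 endothelial markers it was 0.14, 0.15 and -0.05, over the 3 leukocyte markers -0.29, 0.09 and -0.66, and over the 2 oocyte markers -0.27, -0.03 and -0.15. In bulk RNA, fewer cells of a type and less RNA per cell cannot be told apart. The part of cell make-up in the members' values was not tested.

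Other genes of the pathway were counted by list. Of 12 other ligands, receptors and shedding factors, 9 had a named probe and 5 a kept one, and 0 passed in either direction. RHBDF1, an inactive rhomboid protein that acts in the trafficking of ligands and of ADAM17, had the highest mean, 0.26 ± 0.65 (n = 3), from replicate values of -0.49, 0.66 and 0.61. NRG1, neuregulin, a ligand of ERBB3 and ERBB4, had values of -0.65, 0.45 and 0.58 with a mean of 0.13. EGF, RHBDF2 and ADAM17 averaged 0.06, -0.04 and -0.01. EGFR, RHBDF1 and NRG1 were thus all lower in replicate 1 and higher in replicates 2 and 3, as were EGF and ERBB3. The stroma marker ACTA2, outside the pathway, had these signs too (-1.18, 0.19 and 0.20). How many kept probes have them was not counted, and replicates 2 and 3 shared a slide as the array names were read. A second kept probe of ADAM17 averaged 0.32 ± 0.25, away from the brightest probe. The median of the 5 genes was 0.06, against 0.0054 over 11190 genes.

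Of 22 adaptors and regulators that act below the receptors, 22 had a named probe and 17 a kept one, and 0 passed in either direction. NCK1, an adaptor that links receptors to actin, was higher in treated RNA on all 6 arrays, at 0.28 ± 0.078 (n = 3; limma adjusted p = 0.856). EPS15, an endocytic protein, and PTPN12, a phosphatase, averaged 0.21 ± 0.42 and 0.19 ± 0.25. GRB2, the adaptor that couples receptors to the Ras exchange factor SOS1, was lower on all 6 arrays, at -0.31 ± 0.15 (n = 3; limma adjusted p = 0.856), while its second probe was not kept. Of the 17 genes, 1 was thus higher and 1 lower on all 6 arrays, against 390 and 280 of 11190 named genes with a kept probe. SOS1 averaged -0.34 ± 0.44 on its brightest probe and -0.13 ± 0.27 on its other kept probe. LRIG3, a relative of LRIG1, averaged -0.25 on its brightest probe, and its other kept probes gave -0.09 and 0.35. The median of the 17 genes was -0.06. The 95% intervals of these 17 genes and of the 5 above all included 0, as did those of the members other than ERRFI1.

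**Figure D5:**
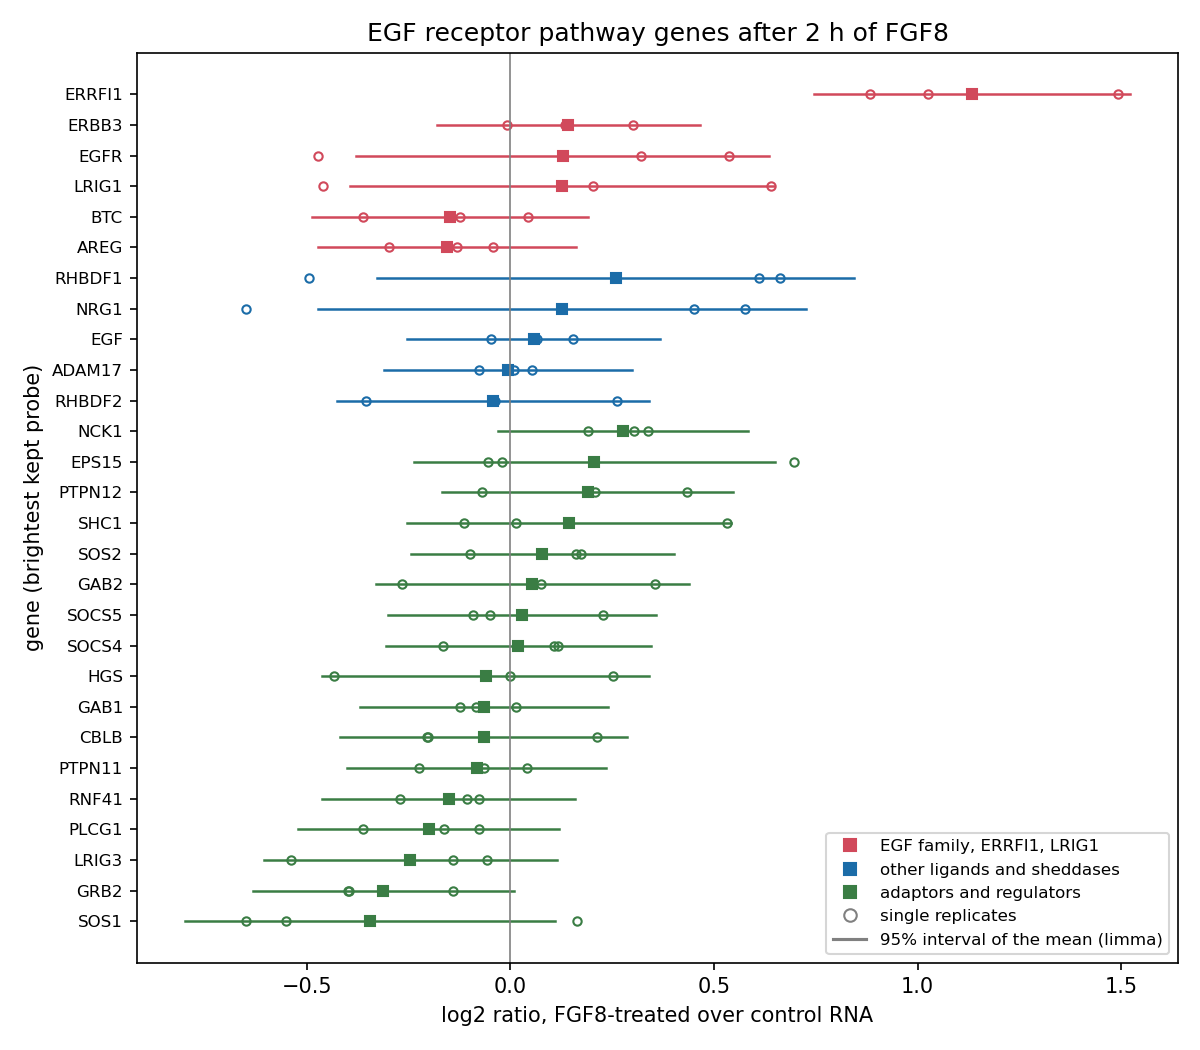
Mean log2 ratio of treated over control RNA (squares), with the 95% interval from limma (lines) and the 3 replicate values (open circles), for the brightest kept probe of each gene. Red marks the family, blue the other ligands and shedding factors, green the adaptors and regulators. The interval of ERRFI1, 0.75 to 1.52, lies to the right of those of the other genes except where RHBDF1 reaches 0.84.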

How the data were processed

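The 6 arrays carried treated and control RNA in opposite dyes. Per the labels' protocols, RNA was amplified in 2 rounds and labelled chemically. Each spot's foreground and local background intensity come uncorrected in the scanner tables, per the file headers. The authors deposited 1 column of log2 values per array. Set against the log2 ratio of treated to control RNA made from median foreground minus local background after loess, turned by the labelled dyes, they correlated at 1.00 on every array. Their medians were -0.00085 to 0.0067. The sources used here give no further step, scanner or software.

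The members and the gene lists were chosen with earlier results of these data known. All probes of a member were described, of each further list the 3 highest and 3 lowest genes, and the 3 genes nearest to ERRFI1. Probes marked ignored (143) were left out. The annotation names 21790 probes and leaves 22004 unnamed; 1524 symbols were updated through RefSeq synonyms. The brightest kept probe stood for a gene. The 3 replicate averages were tested against 0, two-sided, with limma 3.58.1 in R 4.3.3, with Benjamini-Hochberg adjustment over all kept probes. The fit was tested on simulated data.

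Arrays hold treated and control RNA of 1 number, which pairs the groups by design. Deviations of same-numbered arrays from the mean of their orientation correlated at 0.613, 0.454 and 0.610, and those of different numbers at -0.475 to -0.124. The mean is taken over the same arrays, so positive values for same numbers push those of different numbers to negative. The contrast is therefore not independent support for the pairing. Alternatives covered background correction, centring, scaling, blocks, dye orientation, replicates, the filter and the choice of probe.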

Additional observations from a re-analysis of the deposited data

How the results depend on the processing

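ERRFI1 was higher in treated RNA under every alternative that gave a value for it, from 0.88 where treated RNA was in Cy3 to 1.39 where it was in Cy5. It passed the limma threshold in 4 of them: 6 arrays with the replicate block (1.13, adjusted p = 0.0428), without it (1.13, 0.0210), with the slide as a block (1.13, 0.0283), and treated RNA in Cy5 alone (1.39, 0.0429). These take arrays for replicates or keep the dye effect. In the others its adjusted p was 0.192 to 0.866. The block changed no other member's call. AREG, EGFR, ERBB3 and ERRFI1 gave no value when both RNAs had to be above the negative controls on all 6 arrays. With treated RNA in Cy3 alone, EGFR turned to -0.055 and LRIG1 to -0.063. Leaving out replicates in turn gave -0.075 to 0.43 for EGFR and -0.13 to 0.42 for LRIG1, and the cause was not tested. AREG ranged from -0.21 to -0.086, BTC from -0.24 to -0.040, ERBB3 from 0.064 to 0.22 and ERRFI1 from 0.95 to 1.26, all with their direction. AREG and ERBB3 had passed the filter only through the RNA in which they were higher, control and treated RNA in turn. The filter thus favours the sign seen, so its recurrence is no support for the direction of AREG or ERBB3. BTC turned to 0.00095 as the mean of its probes. Over all kept probes, 1 was called, 0 with normexp and loess, 0 with normexp and median centring, 15 with the replicate block, 19 without it, 16 with the slide block, 10 with treated RNA in Cy5, and 0 to 1 with replicates left out. Both normexp counts include the array with unlike background estimates described below. The probes of AREG, HBEGF, EGFR and ERBB3 lay near the negative controls, as did the control RNA of ERRFI1. The part of low signal in their values was not tested.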

Other observations

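The normexp background correction, which models each channel's background, gave unlike estimates on 1 array. On replicate 1 with treated RNA in Cy3, the fitted background mean was -379.8 in Cy5 and -316.8 in Cy3, against 24.7 to 72.2 on the other 5 arrays. The lowest foreground minus local background there was -64773 in Cy5 and -64271 in Cy3, where the other arrays reached no lower than -133. After that correction and loess, the ERRFI1 ratio of the array was 0.12, against 0.70 as deposited, and those of EGFR and AREG were -0.11 against -0.67 and 0.04 against 0.37. The other 5 arrays gave ERRFI1 ratios of 0.47 to 1.49 with normexp. The ratios of that array correlated at 0.753 with the deposited ones, and those of the other arrays at 0.991 to 0.997. LRIG1, whose spot was far above the negative controls, stood at 0.56 against 0.54 on that array.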
